A study of Mus musculus with 5 samples.

Results

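Granzymes B, C, D, E, F and G are serine proteases of cytotoxic granules whose genes (Gzmb, Gzmc, Gzmd, Gzme, Gzmf and Gzmg) lie side by side on mouse chromosome 14. The 6 genes were taken by symbol from the 23337 genes of the deposited count files. They were examined in OT-I CD8+ T cells recovered from B16-OVA melanomas in 2 groups. Mice of the anti-PD-L1 group (2 libraries) received an antibody against PD-L1, which engages the inhibitory receptor PD-1 on T cells. Mice of the Control IgG group (3 libraries) received a rat IgG2b against the irrelevant antigen KLH. Either antibody was given intraperitoneally at 200 µg per mouse, 3 and 6 days after cell transfer. The T cells were C57BL/6J CD45.1 OT-I in both groups, from donors 6 to 12 weeks old. They carry 1 transgenic T cell receptor that recognises ovalbumin, which B16-OVA cells make. Before transfer they were stimulated through CD3 and CD28 and kept in 10 U/ml interleukin-2 until day 5 or 6, so both groups had passed through a culture with interleukin-2, which is known to favour granzyme expression. Tumors were taken on day 8 after transfer, or earlier at a diameter of 1.2 cm. Each library was made from a pool of mice, from which live cells bearing CD8 and CD45.1 were sorted, and the age and strain of the recipients are not in the labels. Where pools rather than single mice are the samples, p-values measure the spread between pools, which may be technical.

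Cytotoxic T cells store granzymes with perforin in secretory granules and release both toward a target cell. Perforin opens the target membrane, and granzymes enter and cut proteins inside. Granzyme B cuts after aspartate and activates death pathways through Bid and caspases. It is the main granzyme of activated CD8+ T cells. Granzymes C to G are products of gene duplication in rodents and have no direct human counterparts. They are known from strongly or repeatedly stimulated T cells, from cultured killer cells and, for several of them, from natural killer cells of the pregnant mouse uterus.

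On GRCm38, the assembly that the name mm10 denotes, the 6 genes span 144.6 kb of chromosome 14 from 56117626 to 56262260, all on the minus strand and each annotated with 1 transcript of 5 exons. Their order along the chromosome is Gzme, Gzmd, Gzmg, Gzmf, Gzmc and Gzmb. Gzme spans 56117626 to 56120625 and Gzmd 56129556 to 56132608, 8.93 kb apart. Gzmg spans 56156582 to 56159579, Gzmf 56205263 to 56211417, Gzmc 56231441 to 56234656 and Gzmb 56258838 to 56262260. A further granzyme gene, Gzmn, lies between Gzmg and Gzmf and had 0 counts in every library. Mast cell protease genes and Ctsg, which encodes cathepsin G, adjoin the cluster beyond Gzme.

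The promoters are shown because 5 of them are near-copies while that of Gzmb is not. RefSeq promoter sequences on GRCm38.p6, from 250 bases before to 50 bases after each start, matched all 6 genes. Those of Gzmc to Gzmg had 87.4% to 94.0% identity between aligned bases and unbroken shared runs of 24 to 76 bases. The Gzmb promoter shares no run longer than 9 bases with any of them. In all 5 copies an 8-base site lies 57 to 82 bases before the start, at the place of a cyclic AMP response element (CRE, TGACGTCA), the motif bound by CREB and ATF factors. Gzmb has an AP-1 motif (TGANTCA), bound by Fos and Jun factors, at 58 bases before its RefSeq start. The whole Gzmb promoter sequence, chr14:56262285-56262584, lies upstream of the gene span given above, which ends at 56262260. Distances for Gzmb therefore hold for the RefSeq start only. The windows below run 5′ to 3′ on the minus strand, with these sites in capitals.
Gzmb: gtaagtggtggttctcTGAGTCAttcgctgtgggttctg
Gzmc: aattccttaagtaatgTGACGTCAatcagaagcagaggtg
Gzmd: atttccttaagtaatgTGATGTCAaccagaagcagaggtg
Gzme: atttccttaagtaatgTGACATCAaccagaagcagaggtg
Gzmf: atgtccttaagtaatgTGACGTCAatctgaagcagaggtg
Gzmg: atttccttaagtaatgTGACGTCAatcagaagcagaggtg
The Gzmb window is chr14:56262370-56262408, that of Gzmc chr14:56234691-56234730, of Gzmd chr14:56132631-56132670, of Gzme chr14:56120664-56120703, of Gzmf chr14:56211466-56211505 and of Gzmg chr14:56159633-56159672. Gzmc, Gzmf and Gzmg hold the CRE letters exactly. Counted from 1 at the first base of the CRE letters, Gzmd has the substitution C4T and Gzme G5A. Of 32845 other promoter entries of the same length, 1.78% hold TGACGTCA and 7.81% hold TGANTCA on either strand. These shares count exact letters, and CRE letters with a substitution were not searched for in other entries. The Gzmb promoter, given in full below, also holds a CRE with a substitution, AGACGTCA.

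A second motif is common to all 6. The core letters of Runx binding (TGTGGT, or ACCACA on the other strand) occur in 2 places in each of the 6 promoters, against 1.79% of the other entries with 2 or more and 16.7% with at least 1. Because Gzmc to Gzmg are copies, their matches are not independent of each other. The Gzmb and Gzme promoters, chr14:56262285-56262584 and chr14:56120576-56120875, are given in full with the Runx letters in capitals, since these 2 genes had the smallest and one of the larger fold changes.
Gzmb: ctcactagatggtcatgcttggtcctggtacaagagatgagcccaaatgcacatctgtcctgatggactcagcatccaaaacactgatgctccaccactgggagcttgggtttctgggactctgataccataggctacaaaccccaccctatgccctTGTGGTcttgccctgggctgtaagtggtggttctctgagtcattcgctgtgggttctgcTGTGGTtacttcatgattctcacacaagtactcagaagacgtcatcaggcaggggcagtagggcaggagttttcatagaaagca
Gzme: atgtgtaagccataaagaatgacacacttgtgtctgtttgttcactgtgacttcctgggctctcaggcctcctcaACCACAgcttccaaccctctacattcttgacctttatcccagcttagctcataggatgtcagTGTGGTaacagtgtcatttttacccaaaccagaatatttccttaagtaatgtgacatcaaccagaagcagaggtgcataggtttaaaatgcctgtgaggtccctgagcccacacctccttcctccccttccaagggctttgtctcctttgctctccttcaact
The Runx letters lie 93 and 34 bases before the start in Gzmb, and 175 and 113 bases before it in Gzme. The T-box letters GGTGTGA and the TATA letters TATAAA were not found in any of the 6 promoter sequences. TTCNNNGAA, a STAT motif, was found only in Gzmb, downstream of the RefSeq start. A match to such letters is a description of the sequence and shows no binding.

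The transcripts are also alike, which limits how far reads can be told apart. Aligned transcripts of Gzmd and Gzme are 94.98% identical, while Gzmb is 75.1% to 79.6% identical to the other 5. Of all 50-base stretches, those also found in a transcript of another gene made up 0% for Gzmb, 4.14% for Gzmc, 21.9% for Gzmd, 20.6% for Gzme, 19.4% for Gzmf and 19.8% for Gzmg. Most of the shared stretches of Gzmf, 12.1% of all its stretches, match Gm4022, an antisense gene that overlaps it by 2473 bases and is not among the counted symbols. The library chemistry does not mark strand, so reads of Gm4022 in that overlap cannot be told apart from Gzmf reads. The line for non-unique alignments stood at 0 in all 5 count files. Values of Gzmd, Gzme, Gzmf and Gzmg are therefore uncertain as to which copy the reads came from, and those of Gzmb are not affected by such sharing at this length.

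The libraries held 9985943 to 12830485 counts in genes. The libraries numbered 1 of both groups stood apart, with 11977 detected genes in anti-PD-L1 replicate 1 and 11696 in Control IgG replicate 1, against 13564 to 13801 in the other 3. The defining genes of the labelled cell type were high throughout, with Cd8a at 1482 to 2045 CPM (counts scaled by the library total and its TMM factor) in the anti-PD-L1 libraries and 1403 to 2162 CPM in the Control IgG libraries. Cd3e stood at 1208 to 1355 CPM after anti-PD-L1 and 1106 to 1168 CPM in controls.

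The comparison asked how the granzyme cluster differs in T cells taken from tumors once PD-L1 has been blocked. All 6 genes had a higher mean after anti-PD-L1, and 5 of them, Gzmc, Gzmd, Gzme, Gzmf and Gzmg, were higher in either anti-PD-L1 library than in any of the 3 controls. That ordering held for 7.74% of the 11299 tested genes and the opposite ordering, which 0 members showed, for 9.58%. Gzmg had no counts in the controls and passed the low-count filter only through the anti-PD-L1 libraries. Its place in this ordering was therefore fixed by the filter. Gzmb, the most abundant of the 6, was the exception and overlapped the controls in TMM-scaled CPM. Scaled by library totals alone it did not overlap, at 3760 CPM in anti-PD-L1 replicate 2 and 3424 CPM in the highest control. The size of the difference came mainly from anti-PD-L1 replicate 1, and no gene passed the test over all genes in the edgeR fit.

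Gzmb had 11061 and 3594 CPM in anti-PD-L1 replicates 1 and 2, against 3793, 3149 and 2907 CPM in Control IgG replicates 1, 2 and 3. Anti-PD-L1 replicate 1 was 3.37 times the control mean, and replicate 2 lay below the highest control. The log2 fold change was 1.16 ± 0.42 (SE), with means of 7327 ± 5280 CPM (SD, n = 2) after anti-PD-L1 and 3283 ± 458 CPM (SD, n = 3) in controls. Gzmb alone took 1.03% and 0.376% of all gene counts in the anti-PD-L1 libraries, and 0.342%, 0.338% and 0.308% in the controls. By these shares, which use no TMM factor, the groups did not overlap.

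Gzmc, whose product kills target cells without caspases in mouse assays, had 1448 and 349 CPM after anti-PD-L1, against 65.1, 189 and 183 CPM in Control IgG replicates 1, 2 and 3. The groups did not overlap, and the lower anti-PD-L1 library was 1.85 times the highest control. The low control was replicate 1, the control with fewer detected genes. The log2 fold change was 2.62 ± 0.62 (SE).

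Gzmd had 56.0 and 12.2 CPM after anti-PD-L1, against 8.76, 4.39 and 2.91 CPM in the controls. Its highest control was replicate 1, the library that was lowest for Gzmc, and the gap to the lower anti-PD-L1 library was 1.39 times. The log2 fold change was 2.67 ± 0.68 (SE).

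Gzme, the closest copy of Gzmd, had 42.6 and 10.6 CPM after anti-PD-L1, against 2.32, 3.92 and 2.45 CPM in the controls. Its controls were the tightest of the 4 genes from Gzmc to Gzmf, with the highest 1.69 times the lowest, and the lower anti-PD-L1 library was 2.70 times the highest control. The log2 fold change of 3.19 ± 0.61 (SE) had the smallest unadjusted p of all 11299 tested genes in edgeR, 0.000732.

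Gzmf had 203 and 22.3 CPM after anti-PD-L1, against 1.34, 9.43 and 13.6 CPM in the controls. It was the most variable member within either group, with anti-PD-L1 replicate 1 at 9.13 times replicate 2 and the highest control at 10.1 times the lowest. The log2 fold change was 3.79 ± 0.99 (SE).

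Gzmg was the rarest member, with 25 and 32 counts in the anti-PD-L1 libraries and 0 counts in each of the 3 controls. Exact Poisson 95% intervals ran from 16.2 to 36.9 and from 21.9 to 45.2 counts after anti-PD-L1, and up to 3.69 counts in each control. The level after anti-PD-L1 was 2.32 and 2.38 CPM. The mean after anti-PD-L1 was 9.06 times a floor of 3 counts per control library, scaled by the same TMM factors. That floor was set and lies below the upper limit of 3.69 counts, so this ratio is no strict lower bound. Gzmg was the only one of the 6 with nearly equal values in both anti-PD-L1 libraries. For Gzmd, a near-copy of Gzmg, Control IgG replicate 1 had 98 counts beside 0 for Gzmg, while anti-PD-L1 replicate 2 had 164 and 32. Gzmg also shares 50-base stretches with Gzme, Gzmf, Gzmn and Gzmc. Whether reads of these copies entered the Gzmg counts was not tested. Because PCR copies are counted as reads, these intervals and floors cover counting error only.

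**Figure D1:**
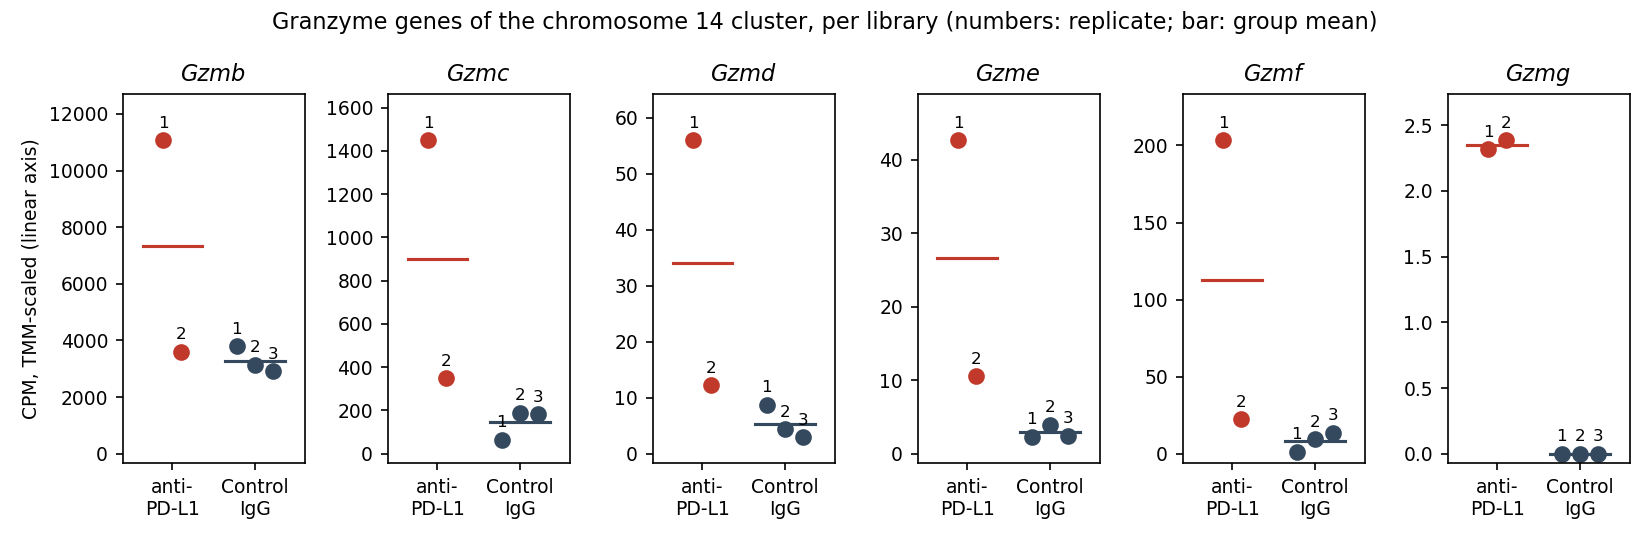
Level of each of the 6 granzyme genes in every library, in TMM-scaled CPM on linear axes that differ between panels; points are libraries numbered by replicate and bars are group means. Anti-PD-L1 replicate 1 is far above all others for Gzmb to Gzmf, anti-PD-L1 replicate 2 lies above all controls for Gzmc to Gzmg and among them for Gzmb, and Gzmg has 0 counts in every control.

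In edgeR's quasi-likelihood test over 11299 genes, 0 of the 6 members and 0 genes in all were called higher or lower (0% of genes), with an adjusted p of 0.9999 for each member. At an unadjusted p under 0.05 all 6 members were higher, as were 134 genes in all (1.19% of those tested), and 107 were lower. Of these members, Gzmg entered the test only through its counts in the anti-PD-L1 libraries. DESeq2 on the same genes called 4 genes higher and 0 lower (0.0354% higher). Of the members it called Gzme, at an adjusted p of 0.00867, and Gzmc, at 0.0093, while Gzmd stood at 0.24, Gzmg at 0.48, and Gzmb and Gzmf at 0.9999. Limma-voom called 0 genes. Without the filter on low counts, edgeR called 5 of 15088 genes higher (0.0331%), among them Gzmc, Gzme and Gzmf, each at an adjusted p of 0.0288, so the tools differed on Gzmf. The members were chosen with these results known, so the counts describe them and are no independent evidence.

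Leaving out anti-PD-L1 replicate 1 lowered each fold change except that of Gzmg. With that library left out, the log2 fold change was 0.13 ± 0.30 (SE) for Gzmb, 1.26 ± 0.54 for Gzmc, 1.19 ± 0.69 for Gzmd, 1.86 ± 0.66 for Gzme and 1.45 ± 0.94 for Gzmf. Without both libraries numbered 1 the values were 0.23 ± 0.15, 0.90 ± 0.22, 1.74 ± 0.42, 1.73 ± 0.45 and 0.93 ± 0.35 (SE). Both fits rest on a single anti-PD-L1 library, which is assumed to vary as the controls do. Gzmg had 32 counts in that library, as given above.

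**Figure D2:**
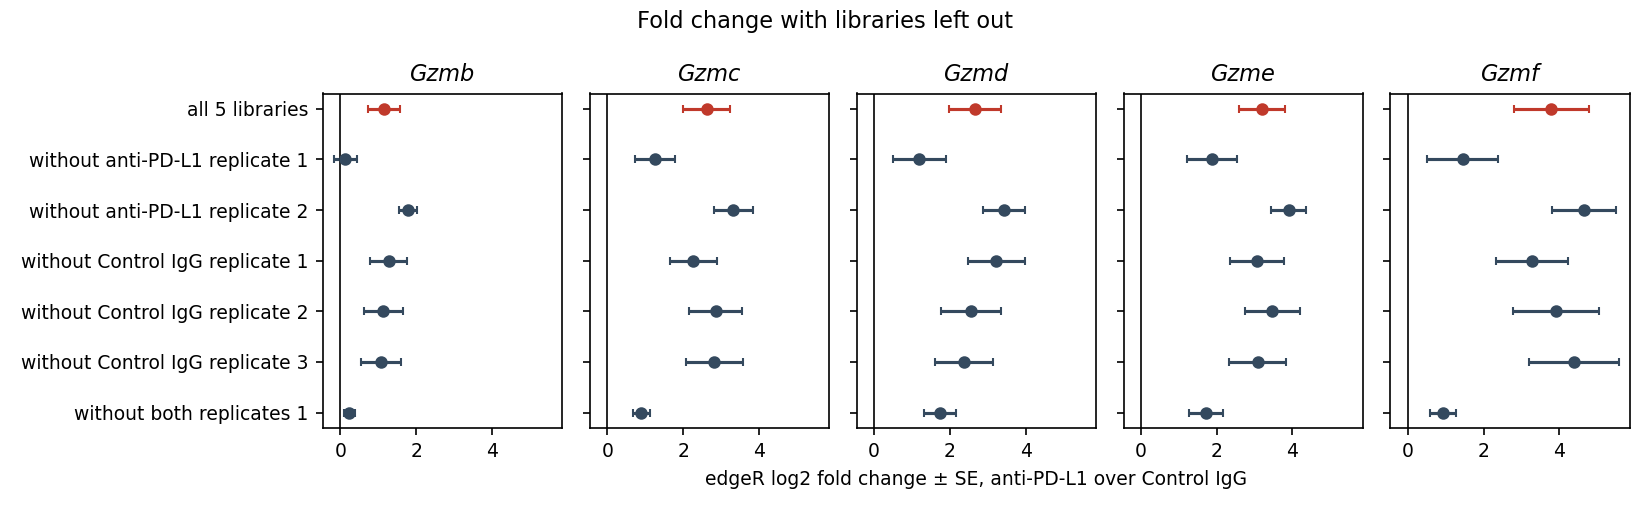
Fold change of Gzmb to Gzmf, anti-PD-L1 over Control IgG, on the log2 scale with its standard error, with all 5 libraries (top, red) and with libraries left out (blue). All values are above 0; Gzmb comes closest to 0, at 0.13 without anti-PD-L1 replicate 1, and Gzmg is not drawn because its controls are at 0 counts.

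Along the chromosome, the smallest fold change of the 6 was at Gzmb, at the end of the cluster away from the mast cell protease genes. The other 5, spread over the rest of the span, had fold changes of 2.62 to 3.79 on the log2 scale or, for Gzmg, the ratio to the floor given above. The standard errors of these overlap, so no order among Gzmc, Gzmd, Gzme and Gzmf can be read from them.

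**Figure D3:**
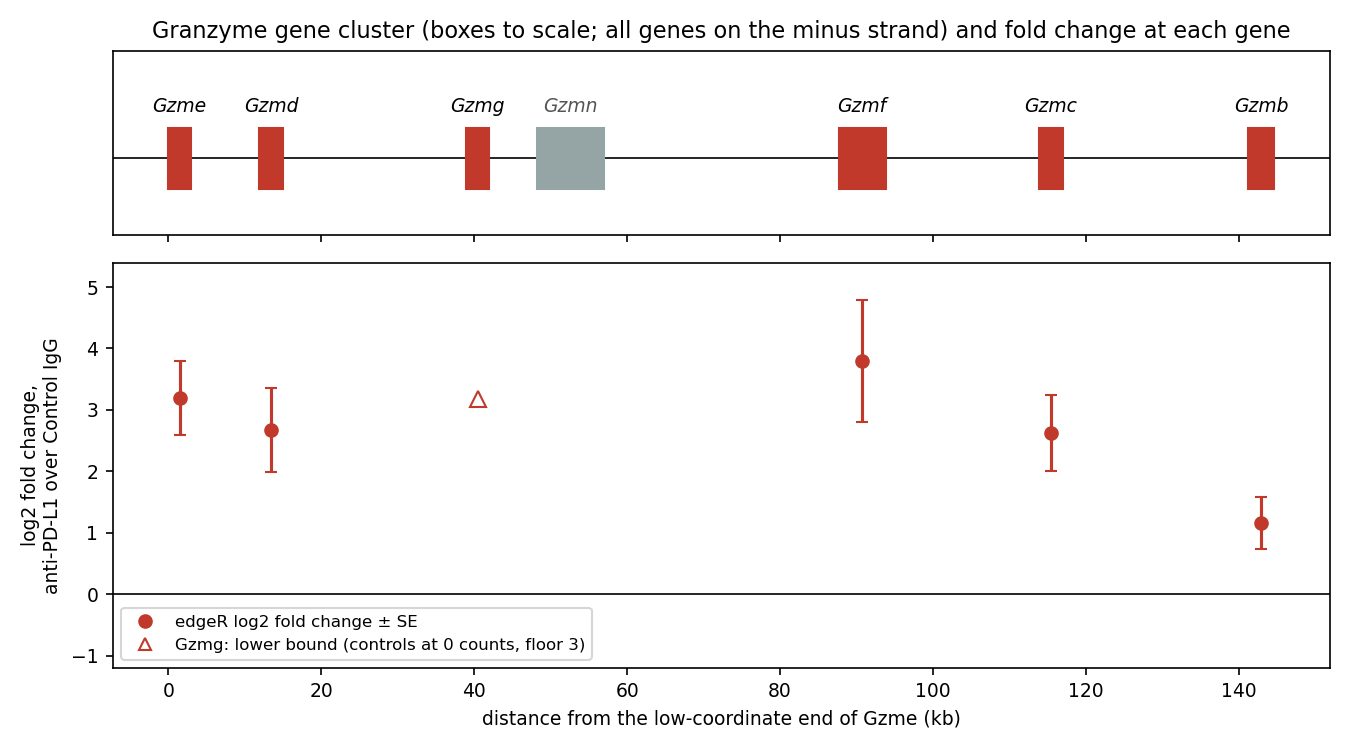
Top, the granzyme genes drawn to scale by distance in kb from the low-coordinate end of Gzme. Bottom, the log2 fold change of each gene, anti-PD-L1 over Control IgG, with its standard error. Gzmg is drawn at the log2 ratio of its mean to a floor of 3 counts, which the drawing labels a lower bound. Gzmb, at the right end, has the lowest value at 1.16, and Gzmn, in grey, had no counts.

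Levels between genes were set side by side per length, as TMM-scaled CPM per kb of exon. In that unit Gzmb averaged 5103 ± 3677 after anti-PD-L1 (SD, n = 2) and 2286 ± 319 in controls (SD, n = 3). Among 20915 genes with a matched length it ranked 3 and 10 in the anti-PD-L1 libraries and 9, 10 and 10 in the controls. Gzmc followed at 1005 ± 869 after anti-PD-L1 and 163 ± 78.2 in controls. Gzmf, Gzmd and Gzme came next, at 123 ± 139, 35.4 ± 32.1 and 29.0 ± 24.7 after anti-PD-L1, against 8.83 ± 6.77, 5.55 ± 3.15 and 3.16 ± 0.969 in controls. Gzmg stood last at 2.59 ± 0.052 after anti-PD-L1 and at 0 in controls. This order held in 4 of the 5 libraries. In Control IgG replicate 1 Gzmf, at 1.46, stood below Gzmd, at 9.09, and Gzme, at 2.54. Gzmd stood above Gzme in each of the 5 libraries, though in either group their means lay closer together than the SD of Gzmd between libraries. The means of Gzmf and Gzmd likewise lay within the SD of Gzmf.

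Between the 2 anti-PD-L1 libraries, the summed share of Gzmc to Gzmg in the cluster was more alike than the cluster total. Between the controls that share was less alike than the total. The 6 genes together took 1.19% and 0.418% of all gene counts in the anti-PD-L1 libraries. In Control IgG replicates 1, 2 and 3 they took 0.349%, 0.360% and 0.329%. Gzmc to Gzmg together gave 13.7% and 9.94% of the counts of the 6 genes in the anti-PD-L1 libraries, with exact 95% binomial intervals of 13.5% to 13.9% and 9.69% to 10.2%. In Control IgG replicates 1, 2 and 3 they gave 2.00%, 6.16% and 6.50%, with intervals of 1.87% to 2.14%, 5.92% to 6.42% and 6.26% to 6.74%. The intervals cover the counting of reads only, and PCR copies are not independent molecules. The share was higher than in any control in each anti-PD-L1 library, replicate 2 included, whose TMM-scaled Gzmb level was among the controls. Gzmc made most of this share, with 13.1 and 9.72 counts per 100 of Gzmb after anti-PD-L1, against 1.72, 6.00 and 6.30 in the controls. The rarer genes were less alike between anti-PD-L1 replicates 1 and 2. Gzmf gave 1.59% and 0.558% of the counts of the 6 genes there, and Gzmg 0.0181% and 0.0597%.

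Each ratio to Gzmb was compared within libraries, which removes the library total. The log2 ratio to Gzmb was higher after anti-PD-L1 by 1.49 for Gzmc, 1.45 for Gzmd, 1.89 for Gzme and 2.58 for Gzmf. The Gzme ratio had means of -8.20 ± 0.26 (SD, n = 2) after anti-PD-L1 and -10.09 ± 0.49 (SD, n = 3) in controls. For all 4 ratios the groups did not overlap. How often this holds for ratios of other genes to Gzmb was not computed. The 4 ratios share Gzmb as denominator, so they are not separate observations. The two-sided exact permutation test gave p = 0.2 for each, also after adjustment over the 4. This is the smallest p that 2 against 3 libraries can give. Control IgG replicate 1 had the lowest ratio for Gzmc, Gzme and Gzmf. Without it the difference was 0.87 for Gzmc, 1.65 for Gzme and 1.498 for Gzmf. Without both libraries numbered 1 it was 0.66 for Gzmc, 1.48 for Gzmd, 1.47 for Gzme and 0.72 for Gzmf.

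**Figure D4:**
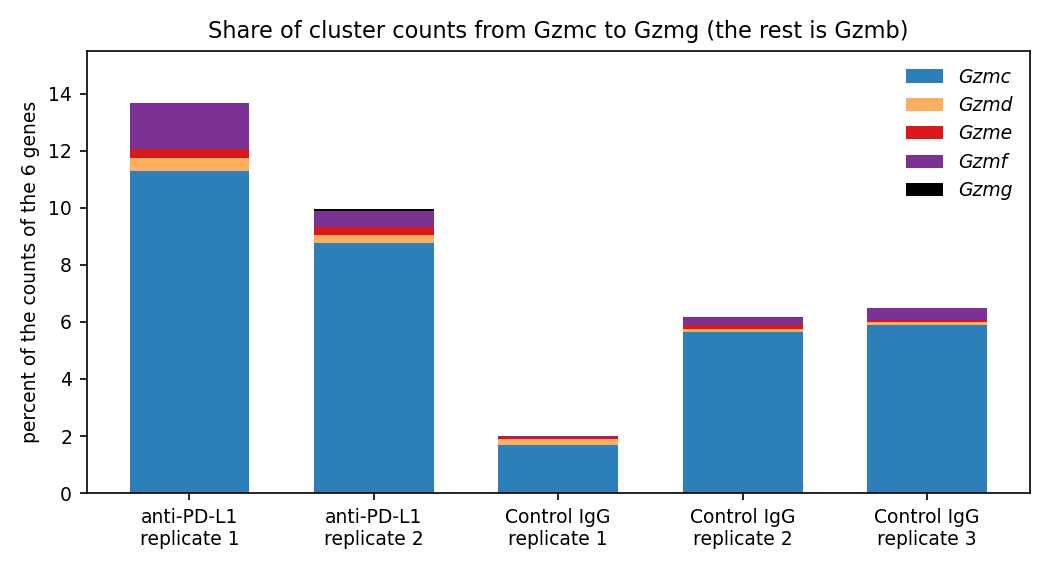
Percent of the summed counts of the 6 genes that came from Gzmc, Gzmd, Gzme, Gzmf and Gzmg in each library, stacked; the remainder up to the full total is Gzmb. The anti-PD-L1 bars reach 13.7% and 9.94%, and the Control IgG bars 2.00%, 6.16% and 6.50%.

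Genes nearest in pattern were sought among 9242 tested genes by the root mean square difference of centred log2 CPM over the 5 libraries, where a smaller value is more alike. Nearest to Gzmb were Spp1, which encodes osteopontin, at 0.12, S100a4, a calcium-binding protein gene, at 0.13, the transcriptional regulator gene Id2 at 0.15 and Plac8 at 0.15. Spp1 had 1886 and 679 CPM after anti-PD-L1, against 651, 526 and 425 CPM in controls, the same single high library as Gzmb. Nearest to the mean profile of Gzmc, Gzmd, Gzme and Gzmf were Serpinb9b at 0.50, Gng11, a G protein gamma subunit gene, at 0.60, AA467197 at 0.63 and Il1r2, the decoy receptor gene for interleukin-1, at 0.68. Gzmb itself was at 1.04 from that profile, at rank 98. Of the genes averaged into the profile, Gzme was at 0.26 and Gzmc at 0.31 from it, while Gzmd was at 0.82 and Gzmf at 0.89. Gzmd and Gzmf were thus farther from it than Serpinb9b, Gng11, AA467197 and Il1r2. Gzmd was also at 0.82 from Gzmb, so it was no nearer to the mean profile than to Gzmb at this rounding. Serpinb9b, from the family of intracellular serpins that includes the granzyme B inhibitor Serpinb9, had 480 and 183 CPM after anti-PD-L1, against 17.5, 68.1 and 70.6 CPM in controls, with Control IgG replicate 1 lowest as for Gzmc and Gzmf. All these profiles share the same 5 libraries, and nearness says nothing of shared function.

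The lists below are related genes, of which 0 passed the edgeR test over all genes in either direction. Their medians stand beside a median log2 fold change of -0.02 over all tested genes, of which 48.1% were above 0. Of 4 other granzymes, 3 were tested and 2 had a fold change above 0. Gzma, a granzyme that cuts after lysine and arginine, had 1045 and 655 CPM after anti-PD-L1, against 609, 206 and 112 CPM in the controls, a log2 fold change of 1.46 ± 0.61 (SE). Gzmk had 98.0 and 44.2 CPM after anti-PD-L1, against 69.2, 24.5 and 35.2 CPM in controls, with overlapping groups.

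Of 14 genes of granule content and release, 13 were on the higher side of 0 and the median log2 fold change was 0.21. In 2 of the 14, Prf1 and Ap3b1, both higher after anti-PD-L1, the groups did not overlap, against 7.74% of all tested genes. The perforin gene Prf1 had 2973 and 850 CPM after anti-PD-L1, against 812, 514 and 782 CPM in controls. Like Gzmb, Prf1 was far higher in anti-PD-L1 replicate 1 alone, and its log2 fold change was 1.44 ± 0.48 (SE). Lamp2, a granule membrane protein gene, had a log2 fold change of 0.77 ± 0.34, and its groups overlapped. Srgn, which encodes the proteoglycan serglycin that holds granzymes in granules, had 0.04 ± 0.34, and Ctsc, which encodes the protease that removes the activation peptide of granzymes, 0.17 ± 0.39. Both were highest in a library numbered 1.

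Of 14 serpin genes, 9 were tested, 7 had a fold change above 0 and the list median was 0.59. Serpinb9b, given above, had a log2 fold change of 2.67 ± 0.60 (SE), and Serpine2, an inhibitor of extracellular serine proteases, 1.73 ± 0.35. The groups did not overlap for these 2, nor for Serpinb6a and Serpini1, so that 4 of the 9 were higher in either anti-PD-L1 library than in any control, against 7.74% of all tested genes. Serpinb9, which protects cytotoxic cells from their own granzyme B, had 808 and 751 CPM after anti-PD-L1, against 905, 603 and 528 CPM in controls, with a fold change of 0.20 ± 0.29.

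Of 16 regulators of granzyme genes, 10 had a fold change above 0, with a median of 0.08. Prdm1, which encodes Blimp-1, had 0.89 ± 0.30 (SE), with 121 and 66.1 CPM after anti-PD-L1 against 48.0 to 54.1 CPM in controls. Id2 had 0.95 ± 0.36, with anti-PD-L1 replicate 2 among the controls. Of 14 genes of interleukin-2 and interleukin-12 signalling, 8 were above 0, with a median of 0.17. Il12rb2, which encodes a receptor subunit for interleukin-12, had 178 and 74.2 CPM after anti-PD-L1, against 43.3, 29.4 and 67.4 CPM in controls. Il2rb, a chain of the interleukin-2 receptor, had a log2 fold change of 0.64 ± 0.29.

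Of 9 genes whose products granzyme B cuts in target cells, 6 were above 0, with a median of 0.03. Bid had -0.34 ± 0.24 (SE) and Casp8 0.40 ± 0.31. Of 56 counted genes annotated within 1 Mb of the cluster, 29 were tested and 13 had a fold change above 0, with a median of -0.06. Of the 29, the groups did not overlap for 5 that were higher and 6 that were lower after anti-PD-L1, against 7.74% and 9.58% of all tested genes. Ltb4r1, a leukotriene B4 receptor gene, had 1.93 ± 0.73, with 14.9 and 7.60 CPM after anti-PD-L1 against 0.983 to 5.36 CPM in controls. Gjb2, a gap junction gene, had -3.33 ± 1.79, and its groups overlapped. It had 6 and 3 counts after anti-PD-L1, against 0, 97 and 37 in Control IgG replicates 1, 2 and 3. Among the protease genes beyond Gzme, Ctsg, Mcpt4 and Cma1 had 0 counts in every library. Mcpt8, between Mcpt4 and Ctsg, had 24 and 1 counts after anti-PD-L1, against 0, 1 and 1 counts in the controls.

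**Figure D5:**
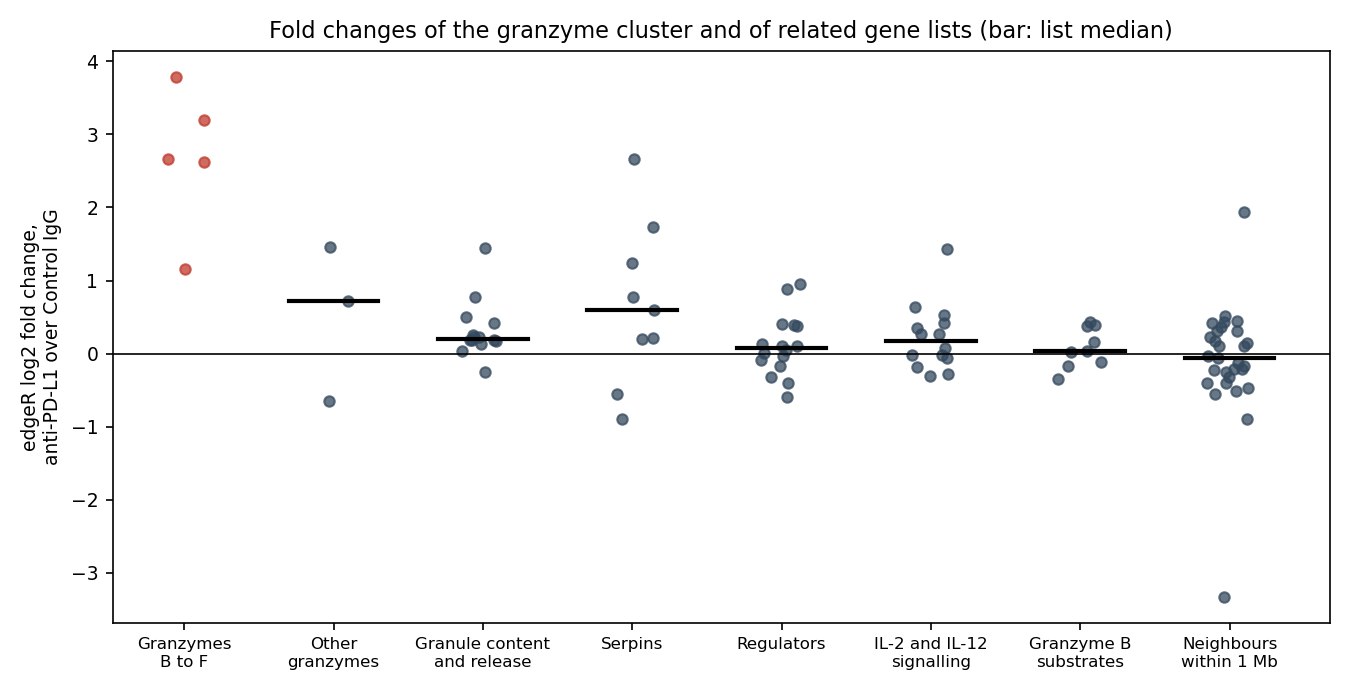
Log2 fold change, anti-PD-L1 over Control IgG, of Gzmb to Gzmf (red) and of the tested genes of 7 related lists (blue), each point a gene, with a bar at each list's median. Gzmc to Gzmf stand between 2.62 and 3.79, Serpinb9b at 2.67 is the highest point among the other lists, and neighbours within 1 Mb centre on -0.06.

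Other cells that make granzymes could be in the sort, and their markers were examined in the same libraries. Of 12 natural killer cell markers 7 were tested and 6 had a fold change above 0, against 48.1% of all tested genes. Their median was 0.93 on the log2 scale, against -0.02 over all tested genes. The summed level of the 12 was 303 and 126 CPM after anti-PD-L1 and 107, 133 and 134 CPM in controls. Most of that sum was Klre1, a lectin-like receptor gene that activated CD8+ T cells also express, at 217 and 79.8 CPM after anti-PD-L1 against 62.0 to 88.5 CPM in controls. Fcer1g, a signalling adaptor gene, had 68.1 and 16.5 CPM after anti-PD-L1 and 18.3 to 22.7 CPM in controls. The Ly49 receptor gene Klra3 had 19.4 and 5.51 CPM after anti-PD-L1 and 4.47 to 6.82 CPM in controls. Klre1, Fcer1g and Klra3 were thus high in anti-PD-L1 replicate 1 alone, the library highest for Gzmb to Gzmf. Klra7, another Ly49 gene, was the 1 tested marker of the 7 whose groups did not overlap. It was higher after anti-PD-L1, an ordering that held for 7.74% of all tested genes. Klra7 had 21 and 12 counts after anti-PD-L1 and 7, 4 and 6 counts in controls. The defining marker Ncr1 had 0 and 3 counts after anti-PD-L1 and 0 to 2 counts in controls. Klrb1c, which encodes NK1.1, had 3.15 and 2.16 CPM after anti-PD-L1 and 2.05 to 4.75 CPM in controls, and Klra4 and Klra8 had 0 counts in all 5 libraries. Of 8 mast cell markers 2 were tested and 4 were at 0 in every library, with a summed level of 5.18 and 4.91 CPM after anti-PD-L1 and 1.21 to 3.90 CPM in controls. Of 6 plasmacytoid dendritic cell markers 2 were tested, and the sum, nearly all Bst2, was 206 and 169 CPM after anti-PD-L1 and 138 to 180 CPM in controls. Myeloid markers summed to 79.7 and 115 CPM after anti-PD-L1 and 72.9 to 173 CPM in controls, CD4 T cell markers to 17.5 and 26.5 CPM and 17.2 to 27.6 CPM, and melanoma markers to 41.5 and 109 CPM and 4.03 to 313 CPM. The part of these markers and of the number of detected genes in the granzyme differences was not tested. In pooled bulk RNA, more granzyme-making cells and more granzyme RNA per cell cannot be told apart.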

How the data were processed

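RNA of 5000 to 30000 sorted cells was amplified with 8 cycles by a modified Smart-seq2 protocol and made into libraries with 12 cycles, per the labels' protocols. The deposited files hold raw read counts, 1 whole number for each gene symbol. TopHat, HTSeq and mm10 are named in the submitters' processing notes, while the sources used here give no versions, annotation, strand setting or treatment of multi-mapped reads. The 5 counter lines of each file were left out. They held 7.46% to 15.2% of counts as reads without a feature and 1.38% to 1.51% as ambiguous.

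The test across genes was the two-sided quasi-likelihood F-test of edgeR 4.0.16 (R 4.3.3), using TMM factors and filterByExpr (minimum count 10, minimum total 15), Benjamini-Hochberg adjustment over 11299 genes and a threshold of 0.05. A standard error is the log2 fold change divided by the square root of F, and the median over genes was 0.38. Log2 CPM used a prior count of 2. DESeq2 1.42.0, limma 3.58.1, no filter, library totals, left-out libraries and a replicate block were alternatives. Sums over marker lists are divided by library totals only. Lengths and coordinates come from GENCODE vM21, which matched 20915 symbols, and promoters from RefSeq on GRCm38.p6. Shared sequence was counted over 50-base stretches of GENCODE transcripts, on both strands, with 35 and 75 bases as alternatives, since no source used here gives the read length.

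Always named were the 6 members, Gzma, Gzmk, Gzmn, Prf1, Srgn, Ctsc, Serpinb9, Serpinb9b, Ncr1, Klrb1c, Cd8a and Cd3e, with the 2 tested genes of smallest p in each related list, or up to 4 past the threshold, and the 4 genes, predicted gene models left out, nearest in pattern to Gzmb and to the mean of Gzmc to Gzmf. Ap3b1, Serpinb6a, Serpini1, Klre1, Fcer1g, Klra3, Klra7, Klra4, Klra8, Bst2, Ctsg, Mcpt4, Cma1, Mcpt8 and Kit are named where a count turned on them, after their values were seen. The members, lists and motifs were chosen with earlier results of these data known.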

Additional observations from a re-analysis of the deposited data

How the results depend on the processing

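Each of the 6 fold changes stayed above 0 under every alternative run. Over 12 alternatives this gave 65 values on the same side of the threshold as the edgeR fit and 7 that passed it. Under DESeq2 with its own size factors 4 genes in all and 2 members were called higher, and DESeq2 on every gene with a count, an alternative chosen after seeing the data, gave 4 and 2 as well. Without a low-count filter edgeR called 5 genes and 3 members, and without both libraries numbered 1 it called 1 gene, Gzma, and 0 members. The cause was not tested. With 1 library left out, 0 genes and 0 members were called, and the log2 fold changes ran from 0.13 to 1.78 for Gzmb, 1.26 to 3.33 for Gzmc, 1.19 to 3.42 for Gzmd, 1.86 to 3.90 for Gzme and 1.45 to 4.65 for Gzmf, lowest in each case without anti-PD-L1 replicate 1 and highest without anti-PD-L1 replicate 2. The ratios to Gzmb ran from 0.87 to 1.81 for Gzmc, 1.17 to 1.76 for Gzmd, 1.65 to 2.14 for Gzme and 1.498 to 3.36 for Gzmf, with a smallest possible p above 0.05 throughout. Without both libraries numbered 1 they were 0.66 for Gzmc and 0.72 for Gzmf. The replicate numbers are not said to pair samples. Deviations of same-numbered libraries from their group means correlated across genes at 0.331 and 0.374. Those of anti-PD-L1 replicate 2 and Control IgG replicate 3 correlated at 0.162. With 2 anti-PD-L1 libraries their deviations are mirror images, so these values are not separate and cannot establish pairing. With the replicate block 0 genes and 0 members were called, and Gzmb had a log2 fold change of 0.87 and Gzme 2.80. With library totals in place of TMM factors Gzmb had 1.09 and Gzme 3.10. Exon and transcript lengths are equal for the 6 genes, so that choice moved no level. With 35-base stretches the shared part was 34.0% for Gzmd and 36.3% for Gzme, and with 75-base stretches 5.73% and 4.75%. Depth limits Gzmg most, since 3 counts stand for 0.234 to 0.300 CPM by library totals.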

Other observations

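Kit, a mast cell and progenitor marker, had 41 and 35 counts after anti-PD-L1 and 2, 20 and 23 counts in the controls.

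The near-copies Gzmd and Gzme kept a nearly fixed ratio in 4 libraries, with 1.31 and 1.155 Gzmd counts per Gzme count after anti-PD-L1, and 1.12 and 1.19 in Control IgG replicates 2 and 3. Control IgG replicate 1 had 3.77. The same library was the lowest for Gzmc and Gzmf and the highest of the controls for Gzmd.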
